A study of Rattus norvegicus with 7 samples.

Results

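The 9 genes for the pore-forming subunits of AMPA and kainate receptors were followed through brain tissue of rats whose diet supplied DHA (docosahexaenoic acid), which belongs to the omega-3 fatty acids. They were chosen by symbol, Gria1 to Gria4 for AMPA receptors and Grik1 to Grik5 for kainate receptors, out of 16514 symbols in both tables together. All 9 were found in the hippocampus table and 8 in the hypothalamus table, where Gria2 was not analysed here. RNA sequencing covered 4 libraries of hippocampus and 3 of hypothalamus. Every library came from male Sprague Dawley rats that were 2 months old when they were assigned to the DHA diet and that stayed on it for 6 weeks. The study compared this diet with regular chow, but chow-fed rats were not analysed here, so none of the values below measures an effect of DHA. The labels do not say whether a library is 1 animal, or whether hippocampus and hypothalamus came from the same animals, so the spread between libraries may be technical in part.

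AMPA receptors carry most of the fast excitatory current at brain synapses, and each channel is assembled from Gria subunits in varying combinations. The Gria2 subunit is edited at the RNA level by the enzyme that Adarb1 encodes, and edited Gria2 makes the channel nearly impermeable to calcium. Kainate receptors shape transmission more slowly, on both sides of the synapse. Grik1, Grik2 and Grik3 encode subunits that form channels by themselves, while Grik4 and Grik5 encode high-affinity subunits that need a partner from the first set.

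Levels are given in FPKM, which scales fragments to transcript length and library size, as the authors deposited them in 1 table for each tissue. Library sums were 370020 to 391349 FPKM in hippocampus and 443335 to 471484 FPKM in hypothalamus, and the read depth behind them is unknown. The tissue labels matched their markers. The 4 hippocampal neuron genes Neurod6, Wfs1, Slc17a7 and Itpka summed to 926.9 to 1323 FPKM in hippocampus and 18.3 to 24.6 FPKM in hypothalamus. The 5 hypothalamic neuron genes Hcrt, Pmch, Oxt, Avp and Pomc summed to 5585 to 8075 FPKM in hypothalamus and 3.40 to 9.86 FPKM in hippocampus, where Oxt was listed at 0 in every library. Choroid plexus genes summed to 34.6 FPKM in hippocampus replicate 2 and to 2067 to 5949 FPKM in the other hippocampus libraries. Replicate 1 of each tissue stood apart from the others. In hippocampus replicate 1, 167 loci lay under 1 FPKM that read 10 FPKM or more in each of the other libraries, and 159 of them belonged to symbols with several loci. The same held for 107 loci in hypothalamus replicate 1, 105 of them of such symbols, against 0 to 6 loci in any other library. The part of this in the results was not tested, and values without replicate 1 are given where they changed a call.

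Gria1 was the most abundant subunit transcript of hippocampus. Its main locus read 109.8, 124.1, 97.4 and 107.7 FPKM in replicates 1 to 4, a mean of 109.8 ± 11 FPKM (SD, n = 4). These libraries lay within 1.27-fold of each other, and Gria1 stood between the 93.9th and the 95.1st percentile of the 10309 hippocampal symbols that averaged 1 FPKM or more. Gria3 read 47.7, 67.7, 53.5 and 96.5 FPKM, a mean of 66.4 ± 21.8 FPKM (SD, n = 4). Gria4 read 20.4, 24.3, 21.0 and 38.1 FPKM, a mean of 25.9 ± 8.27 FPKM (SD, n = 4). Gria3 and Gria4 were both highest in replicate 4 and lowest in replicate 1. Replicate 4 was also the library with the most pan-neuronal transcript, 2339 FPKM summed over Snap25, Syt1, Rbfox3 and Stmn2 against 1428 to 1825 FPKM in the others. Rbfox3 went against this sum, lowest in replicate 4 at 57.9 FPKM and highest in replicate 1 at 128 FPKM. Astrocyte genes were divided, since Gfap and Slc1a3 were lowest in replicate 4 and Aqp4 and Gja1 were highest there. Per 1000 FPKM of the pan-neuronal genes, Gria3 ranged from 32.6 to 41.3 and Gria4 from 13.3 to 16.3, which brought the coefficient of variation from 32.8% to 9.51% for Gria3 and from 31.9% to 8.72% for Gria4. Taken singly, Snap25, Syt1 and Stmn2 gave 4.49% to 10.5% for Gria3 and 4.90% to 11.4% for Gria4, whereas Rbfox3 gave 59.2% and 59.4%. The same division by the sum also narrowed the spread of Grik1 (19.8% to 15.5%), Grik2 (21.1% to 13.3%) and Gria2 (97.4% to 77.7%). It widened the spread of Gria1 (10% to 19.6%), Grik4 (13.3% to 24.4%), Grik3 (3.73% to 23.6%) and Grik5 (31.7% to 46.5%).

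**Figure D1:**
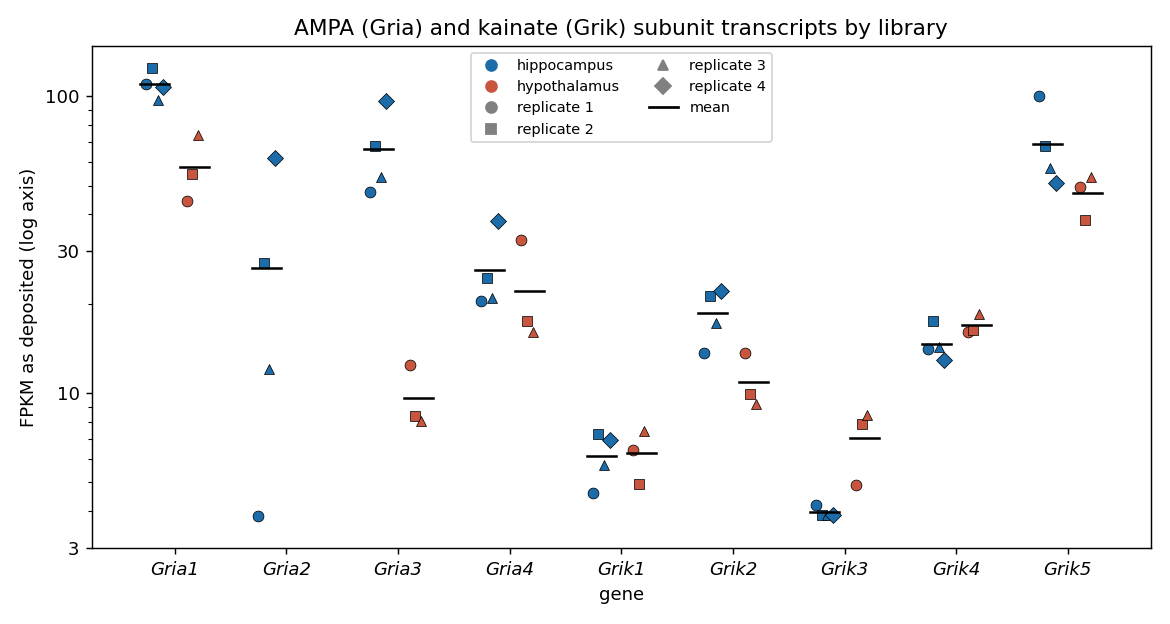
Deposited FPKM (log axis) of each AMPA (Gria) and kainate (Grik) subunit gene in every library; colours mark the tissue, marker shapes the replicate and black lines the mean. Gria3 lies at 47.7 to 96.5 FPKM in hippocampus and at 8.04 to 12.5 FPKM in hypothalamus, whereas Grik1 and Grik4 have overlapping ranges in both; Gria2 is shown for hippocampus only.

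Gria2 varied far more between hippocampus libraries than any other member. It read 3.84, 27.5, 12 and 61.8 FPKM in hippocampus replicates 1 to 4, a 16.1-fold range around a mean of 26.3 ± 25.6 FPKM (SD, n = 4). On the log2(FPKM + 1) scale its SD of 1.58 exceeded that of 99.0% of the hippocampal symbols, while the median symbol had an SD of 0.23. Its rank ran from the 21.2nd percentile in replicate 1 to the 88.8th in replicate 4, and its share of the summed Gria1 to Gria4 signal from 2.11% to 20.3%. Without replicate 4 the mean was 14.5 FPKM and the mean share 6.65% in place of 10.1%. The next widest range among the members in hippocampus was the 2.02-fold of Gria3, and Adarb1, which edits its transcript, read 31.0, 36.3, 27.0 and 33.7 FPKM in the same libraries. Whether this row covers the whole Gria2 gene is not given in the sources used here, so its level, share and rank, and its place below Gria1, hold for the row as listed. It is therefore given by library, and sums over AMPA subunits are taken without it wherever the tissues are set side by side.

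Gria1 had a second hippocampal locus, 1 of the 159 of symbols with several loci that replicate 1 lacked. It was listed at 0 in replicate 1 and read 99.1, 57.6 and 101.3 FPKM in replicates 2, 3 and 4, close to the main locus in replicate 4 and below it in the other libraries. The 4 genes listed before the main locus, Gpx3, Gm2a, Slc36a1 and G3bp1, also precede the single Gria1 row of the hypothalamus table, so the main locus is the one compared between the tissues. The genes listed after do not settle the match. Mfap3, Galnt10, Hand1 and Cnot8 follow the hypothalamus row. Mfap3, Galnt10 and Cnot8 also follow the main locus, and Mfap3, Galnt10 and Hand1 the second locus. Summing both loci raised the hippocampal share of Gria1 among Gria1, Gria3 and Gria4 from 55.1% ± 7.41 to 65.2% ± 4.76 (SD, n = 4).

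**Figure D2:**
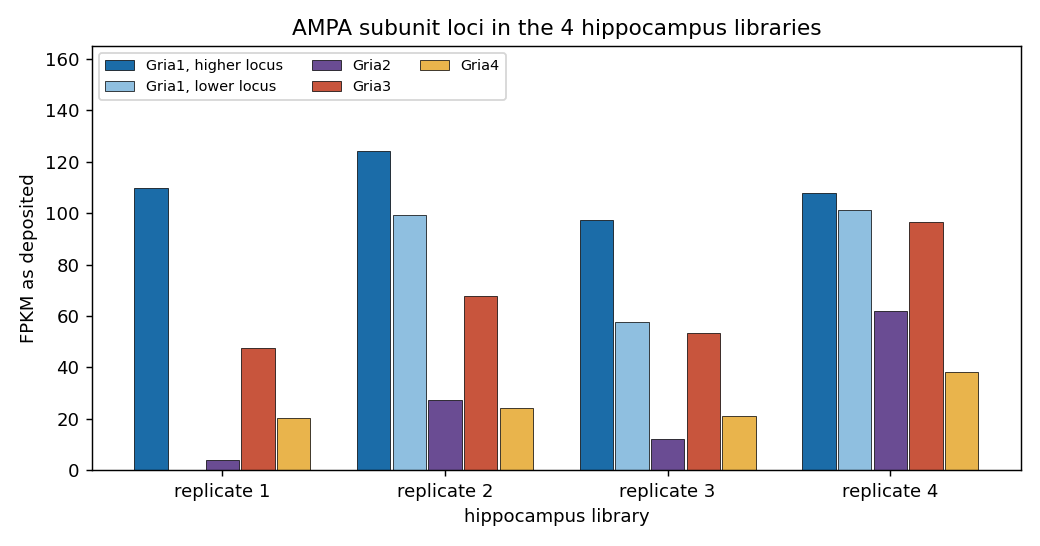
Deposited FPKM of the AMPA subunit loci in each of the 4 hippocampus libraries, 1 bar for each locus. The lower Gria1 locus is listed at 0 in replicate 1 and reaches 57.6 to 101.3 FPKM in the other libraries, and Gria2 climbs from 3.84 FPKM in replicate 1 to 61.8 FPKM in replicate 4.

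Grik5 dominated the kainate subunits of hippocampus. It read 100.2, 67.9, 57.4 and 50.9 FPKM, a mean of 69.1 ± 21.9 FPKM (SD, n = 4), and supplied 52.6% to 73.3% of the summed kainate signal. Replicate 1 was the highest library for Grik5, the reverse of Gria3 and Gria4, and against the pan-neuronal genes its coefficient of variation was 46.5% in place of 31.7%. Against Rbfox3 alone it was 5.18%. Grik2, the main channel-forming kainate subunit here, read 13.7, 21.3, 17.2 and 22.1 FPKM, lowest in replicate 1. Grik4 read 14.0, 17.4, 14.3 and 12.9 FPKM, and Grik1 read 4.62, 7.29, 5.71 and 6.93 FPKM. Grik3 was the scarcest member by mean, at 4.19, 3.89, 3.88 and 3.90 FPKM, though Gria2 lay below it in replicate 1, at 3.84 FPKM. The SD of Grik3 on the log2 scale was below that of all but 0.844% of the symbols.

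By mean FPKM, the hippocampal order was Gria1, Grik5, Gria3, Gria2, Gria4, Grik2, Grik4, Grik1 and Grik3. Library ranges overlapped between most neighbours in this order, and the pairs that did not overlap were Grik4 above Grik1 and Grik1 above Grik3. Gria1 exceeded Grik5 inside each of the 4 libraries and Gria4 exceeded Grik2 inside each of them, although their ranges over libraries met. Grik5 and Gria3 were not told apart, with a ratio of means of 1.04. Exact paired permutation tests cannot fall under 0.05 with 4 or 3 libraries, so orders are given without a p-value.

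In hypothalamus the AMPA subunits were ordered differently. Gria1 again led, at 44.4, 54.8 and 73.9 FPKM in replicates 1 to 3, a mean of 57.7 ± 14.9 FPKM (SD, n = 3). Gria4 followed at 32.8, 17.5 and 16.0 FPKM, and Gria3 read only 12.5, 8.39 and 8.04 FPKM. Replicate 1 was the highest library for Gria3 and Gria4 and the lowest for Gria1, so the ratio of Gria1 to Gria3 ran from 3.56 to 9.19. Gria3 stood between the 37.7th and the 48.6th percentile of 10757 hypothalamic symbols, against the 85.5th to 93.6th percentile in hippocampus. These ranks do not depend on how a library was scaled.

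Among hypothalamic kainate subunits, Grik5 read 49.6, 38.2 and 53.3 FPKM, overlapping Gria1. Grik4 read 16.1, 16.3 and 18.4 FPKM and was the steadiest member, with a coefficient of variation of 7.49%. Grik2 read 13.6, 9.94 and 9.19 FPKM, Grik3 read 4.91, 7.84 and 8.46 FPKM, and Grik1 read 6.41, 4.93 and 7.46 FPKM. Grik2 was highest and Grik3 lowest in replicate 1. The order by mean was Gria1, Grik5, Gria4, Grik4, Grik2, Gria3, Grik3 and Grik1. Neighbours without overlap were Grik5 above Gria4 and Grik4 above Grik2.

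The make-up of the receptor pools was then examined inside each library, where scaling cancels out. Gria3 exceeded Gria4 by 2.34, 2.78, 2.56 and 2.54 times in the hippocampus libraries, whereas the ratio was 0.380, 0.480 and 0.501 in hypothalamus. The order of these subunits thus turned around between the tissues in every library. Of the summed Gria1, Gria3 and Gria4 signal, Gria3 held 32.3% ± 5.45 in hippocampus (SD, n = 4) and 10.8% ± 2.87 in hypothalamus (SD, n = 3). Gria4 held 12.7% ± 2.08 and 24.9% ± 10.5, and these ranges did not overlap either, at 11.3% to 15.7% and 16.4% to 36.6%. The share of Gria1, 55.1% ± 7.41 and 64.3% ± 13.3, overlapped between the tissues. Each tissue has its own table, so tissue and table cannot be told apart here or in any later comparison, and gene models that differ between the tables would enter these ratios.

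The kainate pool also differed in make-up. Grik3 held 3.59% ± 0.477 of the kainate sum in hippocampus and 8.10% ± 2.43 in hypothalamus, and Grik4 held 13.2% ± 2.07 and 19.3% ± 1.71, with no overlap for either gene. The ratio of Grik2 to Grik3 was 3.26 to 5.67 in hippocampus and 1.09 to 2.77 in hypothalamus. For Grik5 to Grik4 it was 3.89 to 7.13 and 2.34 to 3.08. How often shares or ratios of other genes separate the tissues was not tested, for this pool or for the AMPA subunits. The high-affinity subunits Grik4 and Grik5 together held 73.7% ± 7.30 in hippocampus and 72.4% ± 1.74 in hypothalamus, and these shares overlapped. Summed Gria1, Gria3 and Gria4 exceeded the kainate sum by 1.30, 1.84, 1.75 and 2.51 times in the hippocampus libraries. In hypothalamus the same ratio was 0.990, 1.04 and 1.01, so AMPA and kainate transcript were nearly equal there once Gria2 is left out. With the loci of a symbol summed the hippocampal mean ratio went from 1.85 to 2.47.

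**Figure D3:**
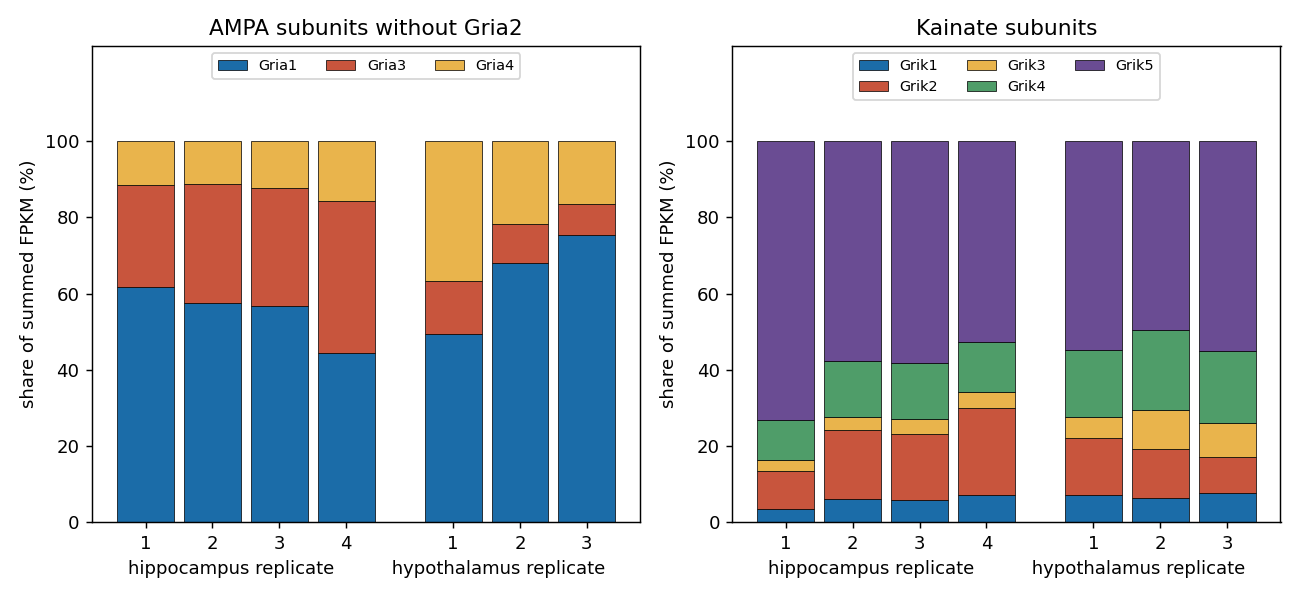
Share of summed FPKM (%) held by each subunit in every library, for AMPA subunits without Gria2 (left) and kainate subunits (right). Gria3 holds 26.8% to 39.8% of the AMPA bar in hippocampus and 8.21% to 13.9% in hypothalamus, and Grik5 is the largest part of each kainate bar, from 49.5% to 73.3%.

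Levels were next set side by side between the tissues after each library was rescaled to the same sum over 15805 shared symbols. A gene was called higher in a tissue when all its libraries lay above all libraries of the other tissue and the mean log2(value + 1) differed by 1 or more, which is 2-fold. The tables differ in their locus numbering and were treated as separate runs, so no test was made across them. In bulk tissue, fewer cells of a type and less RNA per cell cannot be told apart. Of the 8 members in both tables, 3 were called higher in hippocampus and 0 in hypothalamus. Over all 10736 symbols compared, 14.5% were called higher in hippocampus and 13.4% in hypothalamus.

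Gria3 had the largest difference of the 8 members. Its rescaled value ranged from 138.7 to 276.6 in hippocampus and from 18.1 to 29.7 in hypothalamus, an 8.43-fold ratio of means and a difference of 3.0 ± 0.31 on the log2 scale (standard error, 4 against 3 libraries). This lay at the 98.5th percentile of all symbols, whose median difference was 0.05. Gria1 ranged from 284.6 to 348.8 in hippocampus and from 105.8 to 166.4 in hypothalamus, a difference of 1.25 ± 0.17 (standard error). With loci summed the Gria1 difference was 1.83. Grik2 ranged from 39.7 to 63.3 and from 20.7 to 32.4, a difference of 1.03 ± 0.23 (standard error). Grik2 lay at the edge of the 2-fold limit and fell under it without hippocampus replicate 2 (0.97) or 4 (0.94) and without hypothalamus replicate 2 (0.99) or 3 (0.90). It also fell under the limit with median-ratio scaling (0.945), upper-quartile scaling (0.838), loci summed (0.994) and a pseudocount of 5 (0.928). Its libraries stayed apart each time. Without replicate 1 of either tissue all 3 calls held, at 3.34 for Gria3, 1.08 for Gria1 and 1.34 for Grik2, where 18.1% of all symbols were called higher in hippocampus and 15.8% in hypothalamus.

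The remaining members were not called. Grik5 was higher in each hippocampus library than in any hypothalamus library, 145.8 to 291.3 against 91.1 to 120.1 in rescaled values, at a difference of 0.81 ± 0.28 (standard error). Together with the 3 called genes, 4 of 8 members thus lay wholly higher in hippocampus, where the share over all symbols was 28.2%. No member lay wholly higher in hypothalamus, where the share was 24.4%. Gria4, Grik1 and Grik4 overlapped between the tissues, with differences of 0.55 ± 0.37, 0.25 ± 0.20 and 0.08 ± 0.10 (standard errors). Gria4 stopped overlapping without hypothalamus replicate 1, at 0.88. Grik3 was the only member with a negative difference on this scale, at −0.47 ± 0.18 (standard error), and overlapped only through replicate 1 of each tissue. The tissues were apart without hypothalamus replicate 1, at −0.68, and without hippocampus replicate 1, at −0.50.

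The size of these differences depended on the scaling. In FPKM as deposited, where the median symbol stood at −0.21, Gria3 was the only member called, at 2.63. Gria1 (0.94) and Grik2 (0.71) also lay wholly higher in hippocampus, Grik5 (0.51) overlapped, and Grik3 (−0.67) lay wholly higher in hypothalamus. Grik1 (−0.03) and Grik4 (−0.20) overlapped and turned negative, as Grik4 did with upper-quartile scaling (−0.07). Over all symbols on that scale, 8.64% were called higher in hippocampus and 16.9% in hypothalamus, and 19% and 35.2% lay wholly higher in the one or the other.

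Pan-neuronal transcript was itself higher in hippocampus, so scaling libraries to it lowers the differences of all genes. Its part in the subunit differences was not tested. On the rescaled log2 scale all 4 pan-neuronal genes lay wholly higher there, Syt1 by 1.64 and Snap25 by 1.15. In FPKM as deposited Rbfox3 and Stmn2 overlapped between the tissues, as Rbfox3 did with median-ratio scaling. The deposited sum of the 4 was 1428 to 2339 FPKM in hippocampus and 843.4 to 1017 FPKM in hypothalamus. Snap25, Syt1 and Stmn2 each have 2 hippocampal loci, of which the higher was taken. GABA neuron genes went the other way, with a sum of 131.7 to 156.2 FPKM in hippocampus and 331.2 to 419.2 FPKM in hypothalamus over Gad1, Gad2 and Slc32a1. When libraries were scaled to the pan-neuronal sum, the median symbol moved to −1.05. Gria3 remained higher in hippocampus at 1.87 ± 0.17 (standard error), at 32.6 to 41.3 against 8.0 to 12.3 per 1000 FPKM of pan-neuronal transcript, where 3.53% of all symbols were called in that direction. Gria1 (0.09), Gria4 (−0.59), Grik2 (−0.10) and Grik5 (−0.34) then overlapped, and Grik1 (−0.84) lay wholly higher in hypothalamus. Grik3 (−1.55) and Grik4 (−1.05) were called higher in hypothalamus, as were 49.1% of all symbols, and Grik4 sat at the median of all symbols.

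**Figure D4:**
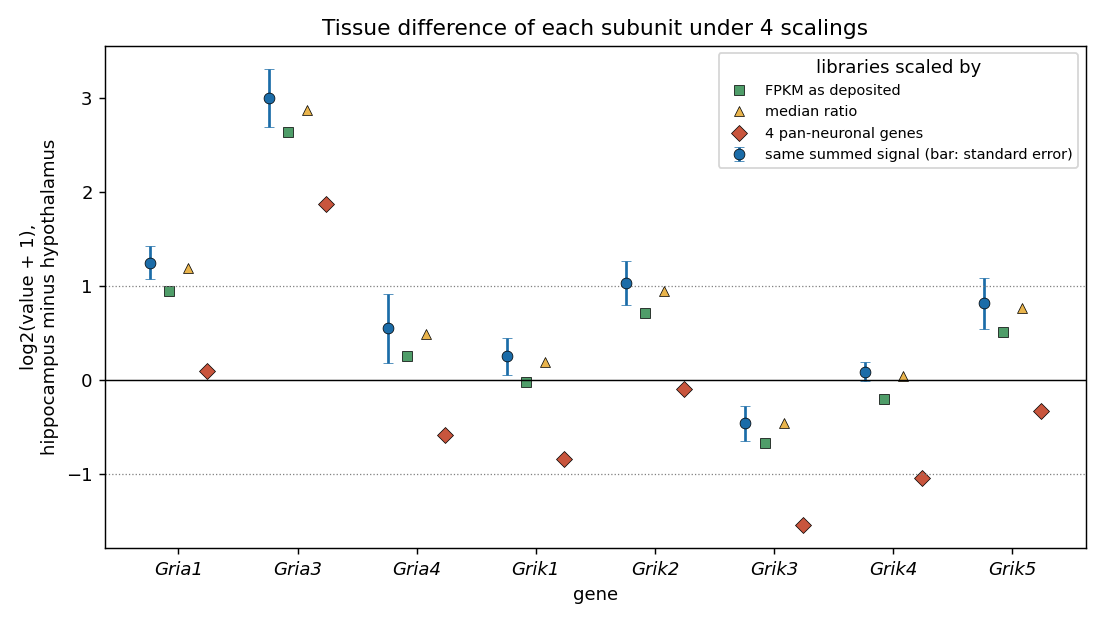
Difference between the tissues in log2(value + 1), hippocampus minus hypothalamus, for the 8 members in both tables under 4 scalings of the libraries; bars on the first are standard errors and dotted lines mark 2-fold. Gria3 stays above the upper dotted line under all 4, from 1.87 to 3.0, and Grik3 stays below 0, from −0.46 to −1.55.

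Promoter sequence was available for 6 members and is shown for Grik2 and Grik3, the channel-forming kainate pair whose ratio separated the tissues. Each run gives the 250 bases before the annotated start, 5′ to 3′ on the gene's strand, from RefSeq on build GRCr8, at chr20:54415284-54415533 for Grik2 (minus strand) and chr5:143052192-143052441 for Grik3 (plus strand). Capitals mark the GC box GGGCGG or its reverse complement CCGCCC.
Grik2: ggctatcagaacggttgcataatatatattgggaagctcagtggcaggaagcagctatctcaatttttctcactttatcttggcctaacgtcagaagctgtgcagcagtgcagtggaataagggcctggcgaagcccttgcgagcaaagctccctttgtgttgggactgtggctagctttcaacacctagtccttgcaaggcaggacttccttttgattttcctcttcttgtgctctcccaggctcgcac
Grik3: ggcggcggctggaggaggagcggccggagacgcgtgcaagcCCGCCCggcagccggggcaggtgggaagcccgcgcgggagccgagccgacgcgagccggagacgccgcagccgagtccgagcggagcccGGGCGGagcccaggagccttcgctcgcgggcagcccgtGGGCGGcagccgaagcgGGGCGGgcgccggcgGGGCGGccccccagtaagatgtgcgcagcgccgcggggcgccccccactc
The windows are unlike in base composition. Grik3 holds 81.6% G and C, 41 CpG steps and 5 GC boxes, and Grik2 holds 49.6% G and C, 5 CpG steps and 0 GC boxes. Over the 33469 promoters of the table the median was 51.2% G and C with 5 CpG steps, and 30.5% held a GC box on either strand. Of the other members in the table, Grik5 has 1 GC box and Gria4, Grik1 and Grik4 have 0 in this window. Such a match describes the letters and not a bound site.

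AMPA receptors are escorted by auxiliary subunits that govern their assembly, surface delivery and gating, and some of these differed between the tissues. The shares called over all symbols, 14.5% towards hippocampus and 13.4% towards hypothalamus, are the background for each list below. Of 21 listed genes, 16 were compared, with a median difference of 0.14, and 5 were called towards hippocampus and 2 towards hypothalamus, the latter near the background share. The median was 0.03 without hippocampus replicate 1, −0.06 without replicate 1 of either tissue and −0.09 in FPKM as deposited, so its sign is not settled. Cacng3 and Cacng2 encode related transmembrane regulatory proteins and went opposite ways. Cacng3 read 59.2 to 91.4 FPKM in hippocampus and 8.81 to 18.8 FPKM in hypothalamus, a difference of 2.69 on the rescaled log2 scale. Cacng2, which encodes stargazin, read 2.91 to 6.36 FPKM in hippocampus and 32.4 to 59.0 FPKM in hypothalamus, a difference of −2.85. Both differences were nearly the same with loci summed, at 2.72 and −2.95.

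The cornichon gene Cnih3 read 36.8 to 56.3 FPKM in hippocampus and 4.15 to 8.18 FPKM in hypothalamus, a difference of 3.0. Its relative Cnih2 had the highest mean of the list over the 7 libraries, though Abhd12 exceeded it in the mean of hypothalamus, and overlapped between the tissues, at 101.4 to 173.2 FPKM in hippocampus and 103.3 to 301.9 FPKM in hypothalamus. Its difference went from −0.18 to −0.56 without hypothalamus replicate 1, and to −0.71 without replicate 1 of either tissue, where it lay wholly higher in hypothalamus. Shisa6 and Shisa7, which encode single-pass auxiliary subunits, differed by 2.14 and by 3.63 ± 0.95 (standard error for Shisa7). Shisa7 was listed at 0 in hypothalamus replicate 1 and read 4.06 and 3.93 FPKM in the others, against 15.5 to 24.0 FPKM in hippocampus. Its difference was 2.52 without hypothalamus replicate 1. Abhd12, a lysophospholipid hydrolase gene, was higher in hypothalamus at 192.6 to 261.3 FPKM against 60.1 to 76.8 FPKM.

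Of 4 listed genes for kainate receptor partners, 2 were called higher in hippocampus and 0 in hypothalamus. Neto1, which encodes an auxiliary subunit that slows kainate receptor gating, read 36.0, 49.5, 37.4 and 65.7 FPKM in hippocampus and 9.17, 7.32 and 7.90 FPKM in hypothalamus. C1ql3, whose secreted product belongs to the C1q-like synapse organizers, read 64.8 to 168 FPKM in hippocampus and 7.74 to 21.8 FPKM in hypothalamus. Both were highest in hippocampus replicate 4, as Gria3 was. Of the other two, Neto2 lay wholly higher in hippocampus at a difference of 0.78, under the 2-fold limit, and C1ql2 overlapped between the tissues at 1.10. Neto2 was called higher in hippocampus without replicate 1 of either tissue, at 1.04.

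Of 14 genes for receptor trafficking, anchoring and clustering, 12 were compared, and 4 were called higher in hippocampus and 1 in hypothalamus. Grasp, which encodes a postsynaptic scaffold protein, read 16.2 to 23.9 FPKM in hippocampus and 1.87 to 2.01 FPKM in hypothalamus. Akap5, which encodes an anchor for kinases and a phosphatase at AMPA receptors, read 8.38 to 16.4 FPKM against 1.28 to 2.20 FPKM, and Gripap1, which acts in endosomal recycling of AMPA receptors, differed by 2.00 on the rescaled log2 scale. Dlg4, the gene of the scaffold PSD-95, differed by 1.21 and fell under the 2-fold limit in FPKM as deposited (0.90) and without replicate 1 of either tissue (0.94), with its libraries wholly higher in hippocampus each time. Nptx1, which encodes a secreted pentraxin that clusters AMPA receptors, read 0.493 FPKM in hippocampus replicate 1 and 107.6 to 196.9 FPKM in the other hippocampus libraries, against 14.5 to 17.5 FPKM in hypothalamus. It overlapped at 1.63, and was called higher in hippocampus without hippocampus replicate 1 (3.50) and with loci summed (3.19). Nsg1, a neuronal endosomal protein gene, was higher in hypothalamus at 357.4 to 469.2 FPKM against 85.2 to 200.2 FPKM.

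The 3 RNA editing enzyme genes overlapped between the tissues over all libraries. Adarb1 read 31.0, 36.3, 27.0 and 33.7 FPKM in the hippocampus libraries and 43.1, 26.4 and 26.4 FPKM in the hypothalamus libraries. Without hypothalamus replicate 1, Adarb1 lay wholly higher in hippocampus (0.57 in place of 0.33) and Adar wholly higher in hypothalamus (−0.31 in place of −0.12), both under the 2-fold limit. Over all 35 genes compared in these lists, the median difference was 0.56, and 11 were called towards hippocampus and 3 towards hypothalamus, against 14.5% and 13.4% of all symbols. In FPKM as deposited the counts were 10 and 5, against 8.64% and 16.9%. Without replicate 1 of either tissue they were 12 and 7, against 18.1% and 15.8%, with Cacng7 (−1.07), Prrt1 (−1.58), Grip2 (−1.21) and Nptx2 (−1.01) added towards hypothalamus. Scaled to the pan-neuronal sum they were 8 and 12, against 3.53% and 49.1%. Cacng3, Cnih3, Shisa6, Shisa7, Neto1, C1ql3, Grasp and Akap5 made up the 8.

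**Figure D5:**
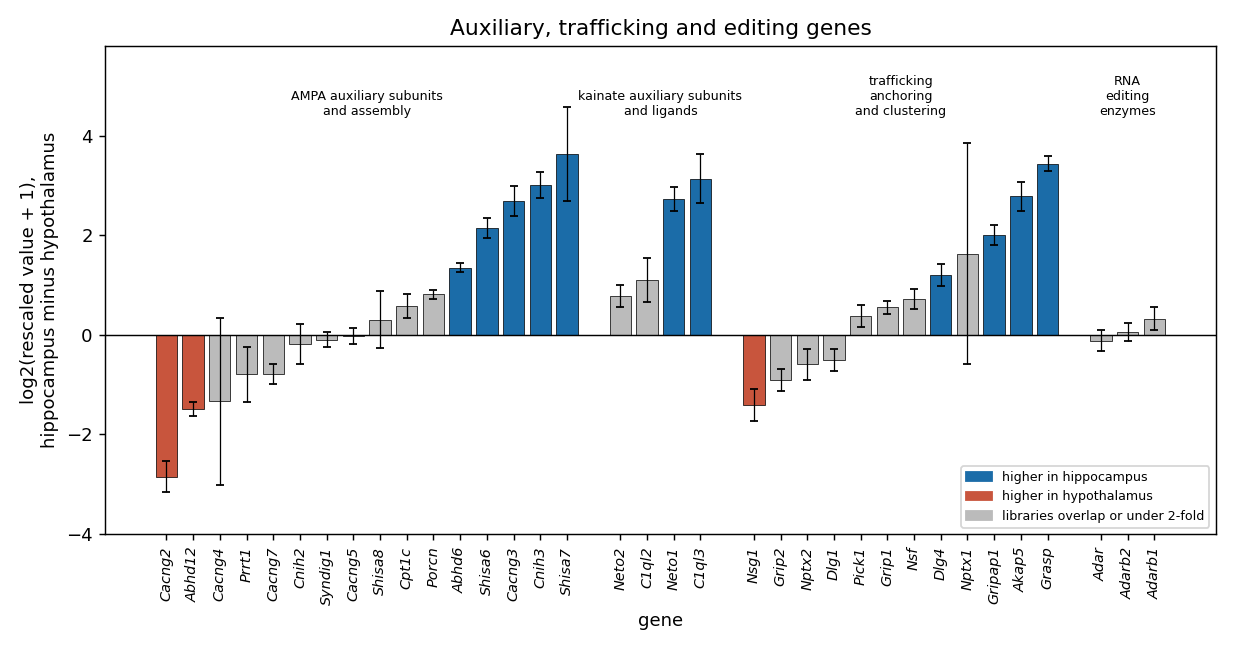
Difference between the tissues in log2(rescaled value + 1), hippocampus minus hypothalamus, for the 35 auxiliary, trafficking and editing genes compared; bars carry standard errors and colours mark the call. Cacng2 (−2.85) and Cacng3 (2.69) lie on opposite sides of 0, and the 3 editing enzyme genes lie near 0.

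Profiles over the 7 libraries were compared by the root mean square difference of log2(rescaled value + 1) after centring each gene on its mean, among 8469 symbols that averaged 5 FPKM or more in either tissue. The profile nearest to Gria3 was that of Akap5 (0.13), followed by Itpr1 (0.16) and Kcnt2 (0.16). Itpr1, an intracellular calcium channel gene, read a mean of 115.7 FPKM in hippocampus and 16.3 FPKM in hypothalamus. Nearest to Gria1 were Atp6v0e2 (0.07), Tiam1 (0.09) and Phactr1 (0.09), and nearest to Grik2 were Naa25, Ncbp1 and Zzz3 (0.06 to 0.07). Gria4 lay nearest to Efr3a, Tmed7 and Pcmtd1 (0.06 to 0.08), and Grik5 to Kctd13, Necab3 and Wdr83 (0.07 to 0.10). Grik1 lay nearest to Top1mt, Fam120b and Btbd16, Grik3 to Phldb1, Sf3a1 and Zfp319, and Grik4 to Tomm34, Fbxo21 and Vps11. The measure takes in the step between the tissues and the spread between libraries together.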

How the data were processed

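Poly-A RNA was sequenced on a HiSeq 2000, per the labels' protocols. The authors deposited FPKM, 1 table for each tissue, with a symbol and a status word for each locus per the file headers. Per the submitters' processing notes, TopHat, TopHat2, Bowtie, Bowtie2, Cufflinks, Cuffdiff and build rn5 were used; roles, annotation and strand setting are not given in the sources used here. Of 10839 locus numbers in both tables, 58 carried the same symbol in both, so the tables were treated as separate runs and joined by symbol.

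Rows whose status word was not OK throughout were dropped (86 in hippocampus, 24 in hypothalamus), and a symbol with several loci was represented by the most abundant one. Levels within a tissue are FPKM as deposited. Between tissues, libraries were rescaled to a sum of 1000000 over shared symbols, log2 values used a pseudocount of 1, and symbols averaging 1 FPKM or more in either tissue were compared by the call rule stated with the results. Standard errors pool the spread of both tissues. No p-value was computed.

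Members and gene lists were chosen with earlier results of these data known. Named genes are all 9 members, up to 6 called genes and the most abundant gene of each list, and the 3 nearest profiles of each member. Listed genes were matched by symbol or unambiguous synonym in the RefSeq table of GRCr8; Cacng8, Shisa9, Gsg1l, Frrs1l and Prrt2 were not analysed here. A further gene list is not reported here. Neto2, C1ql2, Nptx1, Rbfox3 and the genes whose calls changed without replicate 1 were named after their values were seen, as were the counts of loci missing from 1 library. Alternatives covered scaling, pseudocount, filter, loci summed and left-out libraries. Promoters were matched by symbol (Gria4, Grik1, Grik2, Grik3, Grik4 and Grik5). Depth is unknown, so no counting interval is given. Python 3.11.15 with numpy 2.4.6, pandas 2.3.3 and matplotlib 3.10.9 was used.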

Additional observations from a re-analysis of the deposited data

Results flagged for a closer look

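Among 33 hippocampal values screened (levels of the 9 members, the second Gria1 locus and ratios and shares of subunits), 2 had a library far from the other 3, by the gap to its nearest neighbour divided by the whole range; chance gives about 1 in 20. Grik3 was highest in replicate 1, with a ratio of 0.963, because the other libraries lay within 3.88 to 3.90 FPKM and replicate 1 at 4.19 FPKM. The ratio of Grik5 to Grik4 was 7.13 in replicate 1 and 3.89 to 4.02 in the others, which gave 0.962. Replicate 1 was the library with the highest Grik5 level (100.2 FPKM) and the one in which the lower Gria1 locus was listed at 0; the part of either in the result was not tested.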

How the results depend on the processing

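Gria3 was called higher in hippocampus, and Gria1 was positive, under all 18 alternatives tried, with ranges of 1.87 to 3.34 and 0.09 to 1.83. Grik2 kept its call under 8 of 18. The alternatives include other filters and non-overlap alone, which left the differences of Gria3, Gria1 and Grik2 unchanged and could not remove their calls. Of counts and ratios, 4 values moved: the number of members higher in hippocampus went from 3 to 1 in FPKM as deposited and to 1 with scaling by pan-neuronal genes, an alternative chosen after seeing the data, under which 2 were higher in hypothalamus in place of 0 and Grik2 changed sign to −0.10, as did Gria4 (−0.59), Grik1 (−0.84), Grik4 (−1.05) and Grik5 (−0.34). The hippocampal AMPA to kainate ratio went to 2.47 with loci summed. The construction of these scalings, which moves every gene of a library alike, sets the first 3 shifts; the cause of the second Gria1 locus was not tested. Members higher in hippocampus numbered 2 to 3 with a library left out. No paired analysis was possible because the labels do not tie the libraries of the tissues to the same animals. No test was made across the tables, which were treated as separate runs. Sequencing depth was unknown, so how firmly low members such as Grik3 are read cannot be given.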
